A study of Mus musculus with 33 samples.

Results

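The comparison set untreated OKMS6 cells at 24 h against untreated OKMS6 cells at 10 h, across all genes measured. OKMS6 is a partially reprogrammed mouse cell line made from embryonic fibroblasts by viral transduction; its genotype is labelled viral Sox2. The arrays were chosen by their titles, 3 arrays at 10 h and 3 at 24 h, which are 6 of the 33 arrays of the series. The same line with RepSox, an inhibitor of the TGF-beta type I receptor kinase, was measured at 10 h and 24 h on another 6 arrays, which were used to set the same time step beside the untreated one. All these groups share the viral Sox2 background and are 1 line. The labels give neither the event from which the hours are counted in untreated cells nor which cultures had irradiated feeder fibroblasts or which serum. Nothing in them tells whether the replicates came from separate cultures, so the spread behind each p-value may be only that of technical repeats. They also give no chip or scan, so a batch and the time cannot be told apart.

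Cells kept in culture without a change of treatment still alter their RNA as they divide, fill the dish and use up oxygen and nutrients. When oxygen is low, the HIF transcription factors are no longer marked for destruction by prolyl hydroxylases and turn on genes of glycolysis, iron and vessel growth. When cells crowd, the coactivator YAP leaves the nucleus and the genes it drives with TEAD factors, such as Ccn2 and Ccn1, are turned down.

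At both times OKMS6 showed a part of the stem cell markers and a part of the fibroblast markers. The stem cell genes Pou5f1, Tdgf1, Klf2, Fgf4 and Sall4 were detected on all 6 arrays (detection p under 0.05), and Nanog, Esrrb, Dppa4 and Lin28a on none. Of the fibroblast markers, Thy1, Prrx1, Twist1 and S100a4 were detected on all 6 arrays and Col1a1, Col1a2, Col3a1, Pdgfra, Pdgfrb, Twist2 and Lum on none. Thy1, Prrx1, Twist1 and S100a4 were also detected on all 3 R1 stem cell arrays, and Klf2 on all 3 embryonic fibroblast arrays. Detection of these genes therefore does not place the line between the cell types. Of the endothelial markers, Pecam1, Tek and Esam were detected on all 6 arrays, Tie1 on 1, and Cdh5 and Kdr on none. Of the blood cell markers, Laptm5 was detected on all 6 and Ptprc and Tyrobp on none. Of the trophectoderm markers, Krt8, Gata3 and Tfap2c were detected on all 6 and Cdx2, Eomes, Elf5 and Krt18 on none. Of the primitive endoderm markers, Dab2 was detected on all 6 and Gata6, Sox17, Sox7, Foxa2 and Pdgfra on none. Gata4 was detected on 2 of 3 arrays at 10 h and 1 of 3 at 24 h. Pecam1, Tek, Esam, Laptm5, Krt8, Gata3, Tfap2c and Dab2 were also detected on all 3 R1 stem cell arrays. Their detection therefore does not tell these cell types from stem cells. Mean signals were 249 to 305 at 10 h and 217 to 238 at 24 h, and 43.8% to 45.2% and 45.9% to 46.6% of probes were detected. Arrays of a group correlated at 0.992 or more across probes. The number of genes at least 0.5 log2 away from the mean of the other 2 arrays of the group was 35 to 64 at 10 h and 46 to 389 at 24 h, the highest being replicate 3.

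The RepSox arrays at 24 h were not alike, and the genes that set them apart overlap the untreated change. Replicate 3 of that group lay at least 0.5 log2 from the mean of replicates 1 and 2 for 1080 of 9267 genes (11.7%). Of the 1138 genes that changed in untreated cells, 190 (16.7%) had such a gap. In 176 of the 190, replicate 3 lay on the side of the untreated 24 h arrays, and in 14 on the other side. Those 190 genes left out, 948 genes changed, 380 of them up and 568 down. The gap between those RepSox arrays moved with the untreated time step in these genes, and its part in the result was not tested. Among the RepSox arrays at 10 h replicate 3 also stood apart, by at least 0.5 log2 from the mean of the other 2 for 1020 genes, against 307 and 129 for replicates 1 and 2. The RepSox step and its difference from the untreated step rest on both groups.

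From 10 h to 24 h, untreated OKMS6 cells raised 6 of 19 measured hypoxia genes, 6 of 14 glycolysis genes, 4 of 18 cholesterol synthesis genes and 3 of 13 fatty acid genes, and lowered 8 of 24 matrix genes, 5 of 12 YAP and density genes and 5 of 14 immediate early genes. Lists shared members, and Ccn2 was counted in both the YAP and the immediate early list. The fructose-bisphosphate aldolase gene Aldoc rose 3.80-fold, and Ccn2, a matricellular protein and YAP target, fell 3.94-fold. In all, 1138 of the 9267 genes tested changed (12.3%), 460 up (4.96%) and 678 down (7.32%), by limma's moderated test with Benjamini-Hochberg adjusted p under 0.05. Most changes were small. The median absolute change of the changed genes was 0.52 on the log2 scale, and 24 genes rose and 50 fell by at least 2-fold. The arrays of the 2 times did not overlap for 1136 of the 1138, against 18.9% of all genes that were higher and 21.2% that were lower without overlap. The median change of all genes was 0.0015. The count was 206 with all 30 arrays of the platform in the fit. It was 1120 with 28 of them, the dim V6.5 stem cell replicates 1 and 3 left out. The series matrix gave 326, and leaving out any 1 of the 6 arrays gave 594 to 789. All levels below are normalized log2 intensities, and all changes are differences of their means (24 h minus 10 h), 3 against 3 arrays. Their standard errors (SE) and p-values rest on a spread shared by the 6 groups of the 18 OKMS6 arrays, RepSox arrays included.

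The largest rise was that of Aldoc. Its levels were 4.85, 4.91 and 4.91 at 10 h and 7.07, 6.85 and 6.52 at 24 h. The groups did not overlap, and the probe was detected on 2 of the 3 arrays at 10 h. The change was 1.92 ± 0.16 (adjusted p = 7.9e-07). At 48 h the level was higher still, at 8.52 over replicates 1 and 2. Replicate 3 of that time is left out wherever a 48 h level is given, because the deposited tables disagree on it. It stayed in the fit.

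Several of the other large rises are known hypoxia-inducible genes. Ndrg1, a stress-induced growth arrest gene, had levels of 9.05, 8.82 and 9.02 at 10 h and 10.52, 10.27 and 10.53 at 24 h, a rise of 1.48 ± 0.16 (adjusted p = 9.7e-06). Mgarp, a mitochondrial protein of the hypoxia response, went from 7.01, 6.84 and 7.04 to 8.65, 8.56 and 8.06, a rise of 1.46 ± 0.16 (adjusted p = 9.7e-06). Egln3, a prolyl hydroxylase that marks HIF subunits for destruction, went from 8.13, 8.20 and 8.12 to 9.80, 9.40 and 9.36, a rise of 1.37 ± 0.17 (adjusted p = 5.8e-05). In each of the 3 genes every array at 24 h lay above every array at 10 h. Their 48 h levels were 10.64, 9.91 and 10.06. With the series matrix the calls of Ndrg1, Mgarp and Egln3 were lost (adjusted p = 0.052, 0.18 and 0.17), and that of Aldoc was kept. The matrix fit also held the 48 h replicate 3 columns on which the deposited tables disagree, and these enter the shared spread. Their part in the lost calls was not tested.

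The remaining large rises fell into no single function. Selenbp1, a selenium-binding protein, was detected on no array at 10 h and on all 3 at 24 h, which puts its rise at 2.36-fold or more (adjusted p = 9.7e-06). Upk1b, a uroplakin of bladder epithelium, rose by 1.29 ± 0.16, the membrane protein gene Clrn3 by 1.23 ± 0.12, and Eml1, a microtubule-binding protein, by 1.14 ± 0.18. The kallikrein genes Klk1 and Klk1b5 rose by 1.18 ± 0.16 and 1.12 ± 0.13, and their family members are near-identical in sequence, so which of them the probes read is uncertain. Eno1b, closely related to the glycolytic enzyme gene Eno1 and equally uncertain, rose by 1.19 ± 0.24, with a gap of 0.84 between replicate 3 and the other RepSox 24 h arrays. Vapb, a membrane protein of the endoplasmic reticulum, rose by 1.11 ± 0.27 and was back at 6.43 at 48 h, near its level of 6.52 to 6.80 at 10 h.

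**Figure D1:**
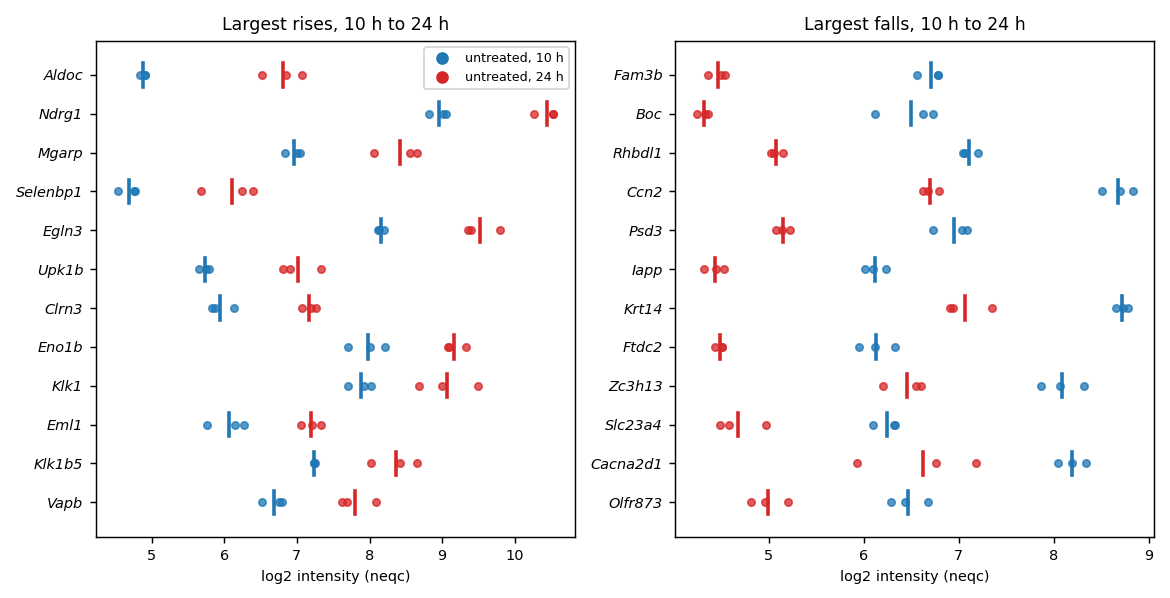
Normalized log2 intensity (x axis) of the 12 largest rises and the 12 largest falls among changed genes, with a point for each of the 3 untreated arrays at 10 h (blue) and at 24 h (red) and a vertical bar at each mean. The 2 colours do not overlap in any of these genes, which the rule that chose them required; Aldoc lies farthest apart on the left and Fam3b on the right.

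Among the largest falls, Ccn2 had the smallest adjusted p. Its levels were 8.51, 8.83 and 8.69 at 10 h and 6.80, 6.63 and 6.68 at 24 h, a fall with a change of -1.98 ± 0.15 (adjusted p = 5.0e-07). The keratin gene Krt14, of basal epithelium, went from 8.65, 8.73 and 8.78 to 7.35, 6.94 and 6.91 (-1.65 ± 0.17, adjusted p = 5.3e-06). Zc3h13, a member of the complex that methylates adenosine in RNA, changed by -1.63 ± 0.29, and Cacna2d1, an auxiliary subunit of calcium channels, by -1.56 ± 0.21. The level of Cacna2d1 at 24 h spread from 5.93 to 7.18 but stayed under its lowest 10 h value of 8.04.

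The other 8 of the 12 largest falls shared 1 pattern over the 18 OKMS6 arrays. Fam3b, a secreted cytokine-like protein of the pancreas, had levels of 6.78, 6.56 and 6.78 at 10 h and 4.54, 4.36 and 4.50 at 24 h, where it was detected on no array, so it was at least 3.80-fold lower (adjusted p = 2.1e-04). In RepSox cells at 24 h it stood at 6.45 and 6.44 on replicates 1 and 2 and at 4.42 on replicate 3. Boc, a co-receptor of hedgehog ligands, was at least 3.27-fold lower in untreated cells, and on the RepSox 24 h arrays it was at 6.17, 5.98 and 4.39. The same split was seen for Rhbdl1 of the rhomboid protease family (-2.02 ± 0.36), Psd3, an exchange factor for Arf GTPases (-1.80 ± 0.24), Slc23a4 (-1.57 ± 0.26) and the olfactory receptor gene Olfr873 (-1.47 ± 0.24). It was also seen for Iapp, which encodes the islet hormone amylin, and Ftdc2, which were at least 2.52-fold and 2.55-fold lower. The SE and adjusted p of these 8 genes include that split, because the spread is shared by the 6 groups. Rhbdl1 in untreated cells was at 7.04, 7.06 and 7.20 at 10 h and 5.06, 5.15 and 5.03 at 24 h. On the RepSox 24 h arrays it was at 6.87, 7.18 and 4.94. With Krt14, 9 of the 12 largest falls had a gap of at least 0.5 log2 in the direction of the fall, against 1 of the 12 largest rises. Across all 9267 genes the gap and the untreated change correlated at r = 0.37, which describes genes that share their arrays and is no test.

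**Figure D2:**
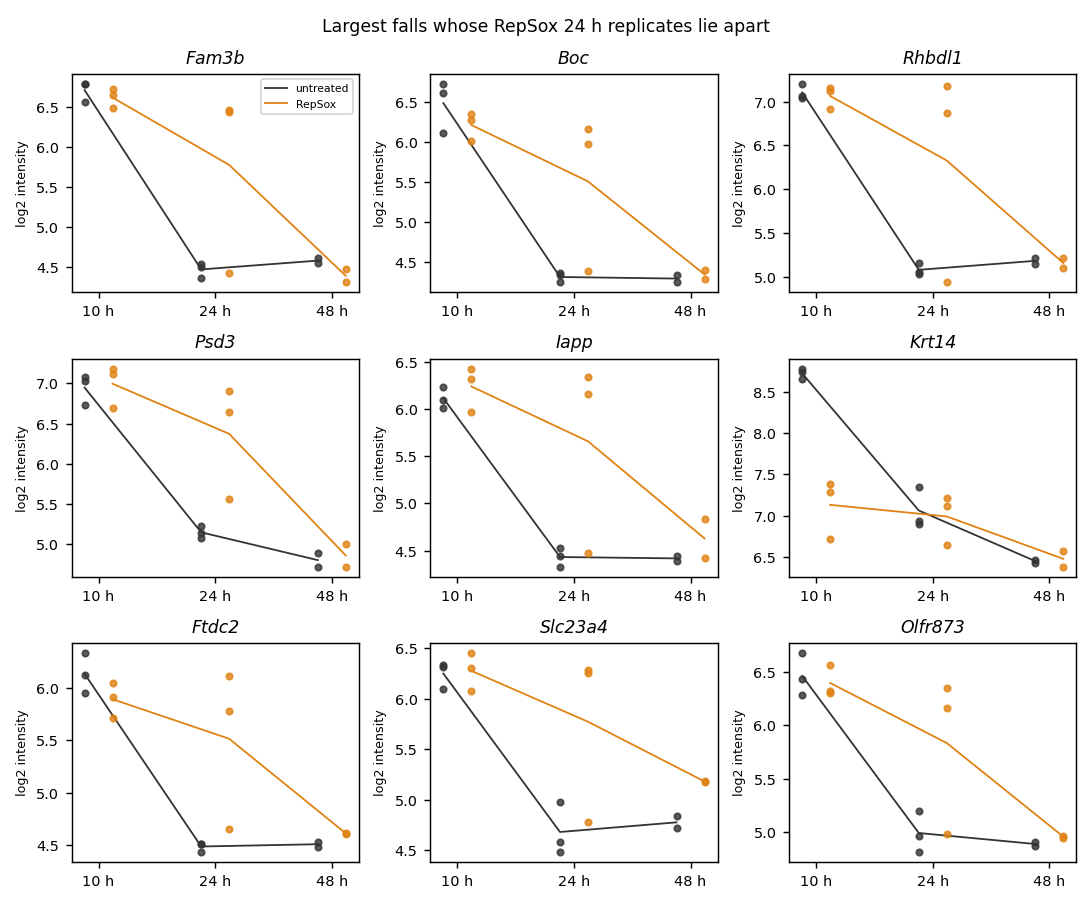
Normalized log2 intensity (y axis) by time (x axis, drawn at even steps) of 9 of the 12 largest falls, with a point for each untreated array (black) and each RepSox array (orange), lines through the means, and 2 arrays per group at 48 h. In 8 panels the RepSox 24 h arrays split, 2 near the 10 h level and 1 near the untreated 24 h level; in Krt14 the RepSox arrays were already low at 10 h.

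Of 25 hypoxia response genes listed, 23 were on the array and 19 were measured. Of the 19, 6 rose, 0 fell and 13 did not pass, against 4.96% of all genes that rose. All 19 changes were above 0, with a median of 0.37. Apart from Ndrg1 and Egln3, the members with the smallest adjusted p were P4ha1, the catalytic subunit of collagen prolyl hydroxylase, and Mxi1, a Max-binding antagonist of Myc. P4ha1 had levels of 5.14, 5.12 and 4.93 at 10 h and 5.94, 5.67 and 5.61 at 24 h, a rise of 0.68 ± 0.14 (adjusted p = 0.0034). Mxi1 rose by 0.85 ± 0.20 (adjusted p = 0.0078), with a gap of 0.83 between the RepSox 24 h arrays. With all 30 arrays of the platform in the fit 2 of the 6 calls remained, and with the authors' series matrix 1.

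Glycolytic enzymes showed the highest median of all lists with at least 5 measured members, 0.46. Of 17 listed, 14 were measured, 6 rose and 0 fell, against 4.96% of all genes that rose. Besides Aldoc they included Aldoa, the main aldolase of muscle and most cells, which went from 10.84, 10.81 and 10.78 to 11.60, 11.40 and 11.54, a rise of 0.70 ± 0.11 (adjusted p = 4.2e-04). Pfkm and Pfkl, subunits of the rate-controlling phosphofructokinase, rose by 0.58 ± 0.11 and 0.67 ± 0.13. The summed linear level of the 14 genes was 40069 to 42729 at 10 h and 45871 to 52432 at 24 h, with no overlap. Of the 6 calls, 5 remained with all 30 arrays and 2 with the series matrix.

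The promoters of these genes were read because the 2 lists moved together and HIF binds a short core in its targets. The motif searched was TACGTG or GACGTG on either strand, in windows from 250 bases before to 50 bases after each start in RefSeq (GRCm38.p6). Of the hypoxia members, 14 had a window and 10 of them held the motif, and of the glycolysis members 10 of 14. Among all 32851 windows 9.4% held it, and among the tested genes with a window 15%. Of the members that rose and had a window, 4 of 5 hypoxia genes and 2 of 6 glycolysis genes held it. A match describes letters and is not a site. The hypoxia list was made of known response genes, so its share of the motif says nothing about this time step. The stretches around the match before the start are shown for the genes named above, with the match in capitals, for Egln3 on chr12:54204079-54204124 (minus strand), P4ha1 on chr10:59323260-59323295 (plus), Mxi1 on chr19:53329326-53329371 (plus) and Aldoa on chr7:126799355-126799400 (minus).
Egln3: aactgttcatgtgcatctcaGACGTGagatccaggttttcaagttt
P4ha1: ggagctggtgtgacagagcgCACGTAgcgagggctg
Mxi1: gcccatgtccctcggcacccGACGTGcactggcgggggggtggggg
Aldoa: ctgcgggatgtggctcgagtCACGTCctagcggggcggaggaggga

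Some lipid synthesis genes rose, where 4.96% of all genes did. Of 18 measured cholesterol synthesis genes 4 rose and 0 fell (median 0.17). Of the 4 calls 1 remained with all 30 arrays and 2 with the series matrix. Fdps and Sc5d, which were among the 4, lost their calls under 9 and 11 of 20 alternatives. Stard4, a sterol carrier, rose by 0.62 ± 0.12, and the last enzyme of the pathway, Dhcr7, by 0.97 ± 0.19. Of 13 fatty acid genes 3 rose and 0 fell (median 0.21). Of these 3 calls 1 remained with all 30 arrays and 2 with the series matrix. Scd1, the stearoyl-CoA desaturase, went from 8.92, 8.88 and 8.83 to 10.00, 9.87 and 9.82, a rise of 1.02 ± 0.15 (adjusted p = 2.5e-04). Its relative Scd2 rose by 0.75 ± 0.15, and Srebf1, a transcription factor that drives lipid synthesis, by 0.56 ± 0.14. The sterol element TCACNCCAC was found for 1 of 15 cholesterol genes with a window, against 1.4% of the tested genes with one. Of the 2 risen genes with a window 0 held it.

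Stress and nutrient genes moved in smaller numbers, where 4.96% of all genes rose and 7.32% fell. Of 27 ATF4 and amino acid stress genes 3 rose and 0 fell. Ddit4, an inhibitor of mTORC1 signalling, rose by 0.96 ± 0.14, the stress-induced Nupr1 by 0.75 ± 0.15, and Vldlr, a lipoprotein receptor that was detected on no 10 h array, was at least 1.65-fold higher. Txnip, a thioredoxin-binding protein that follows glucose supply, rose by 0.83 ± 0.12 and stood at 10.27 at 48 h against 7.27 to 7.38 at 10 h. Of 17 p53 targets 4 rose and 1 fell, among them the cell death gene Bbc3 (0.69 ± 0.13) and Mdm2, which removes p53 (-0.34 ± 0.11). Of these 5 calls 0 remained with all 30 arrays and 1 with the series matrix.

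Antioxidant genes of the NRF2 list went both ways, 2 up and 3 down of 21, against 4.96% and 7.32% of all genes. Hmox1, which breaks down heme, had levels of 8.31, 8.47 and 8.43 at 10 h and 7.45, 7.09 and 7.33 at 24 h (-1.11 ± 0.15, adjusted p = 1.0e-04). Gclm, a subunit of the enzyme that starts glutathione synthesis, fell (-0.49 ± 0.10), as did Srxn1, which repairs peroxiredoxins (-0.59 ± 0.12). Catalase, Cat, rose by 0.66 ± 0.15. Of 15 endoplasmic reticulum chaperones 2 fell, Pdia3 (-1.05 ± 0.21) and Dnajc3 (-0.54 ± 0.12), and of 10 heat shock genes only the co-chaperone Bag3 passed (-0.57 ± 0.12). With 7.32% of all genes fallen, these counts say little about the 2 lists.

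Of 41 matrix genes listed, 24 were measured. Of the 24, 8 fell, 0 rose and 16 did not pass, against 7.32% of all genes that fell. The median was -0.19, and 10 of the 24 changes were above 0. Lox, which crosslinks collagen and elastin, went from 6.09, 6.34 and 6.15 to 5.21, 5.18 and 5.17 (-1.01 ± 0.12, adjusted p = 4.3e-05). Bgn, the proteoglycan biglycan, changed by -1.02 ± 0.12, Tnc, the glycoprotein tenascin C, by -1.05 ± 0.14, and Timp3, an inhibitor of matrix proteases, by -0.90 ± 0.10. Lox and Bgn were at 4.84 and 6.11 at 48 h, below their lowest 24 h values of 5.17 and 6.35, whereas Timp3 stood at 8.55, above its 8.19 to 8.38 at 10 h. Of the 8 calls 3 remained with all 30 arrays, where Lox was lost (adjusted p = 0.77), and 3 with the series matrix; Bgn was called under every alternative run. The 5 measured fibroblast markers included 3 that fell, Twist1 (-0.71 ± 0.13), a transcription factor of mesenchyme, the surface protein gene Thy1 (-0.65 ± 0.16) and the proteoglycan gene Dcn, which was detected on no array at 24 h and was at least 1.29-fold lower. S100a4, a calcium-binding protein, had a change of 0.48 ± 0.29 and did not pass. Of the 3 calls 0 remained with all 30 arrays and 1 with the series matrix. Twist1, Thy1 and S100a4 had gaps of -0.55, -0.57 and 1.49 between the RepSox 24 h arrays. The summed linear level of the 5 was 411 to 418 at 10 h and 292 to 370 at 24 h. Fewer fibroblast-like cells and less RNA per cell cannot be told apart in these bulk samples.

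Of 12 measured YAP target and density genes, 5 fell, 1 rose and 6 did not pass (median -0.30), against 7.32% of all genes that fell. Ccn2 had the largest change. Tead4, a DNA-binding partner of YAP, went from 7.50, 7.54 and 7.52 to 6.75, 6.80 and 6.74 (-0.76 ± 0.09, adjusted p = 4.2e-05). Ankrd1, a muscle ankyrin repeat protein, went from 5.90, 6.03 and 5.81 to 5.11, 4.89 and 5.02 (-0.91 ± 0.14, adjusted p = 2.5e-04). Ccn1, a matricellular protein like Ccn2, was detected on 1 of 3 arrays at 24 h (-0.60 ± 0.12), and the receptor kinase gene Axl changed by -0.42 ± 0.09. Gadd45b, a stress gene of the list, rose by 0.52 ± 0.14. Of the 6 calls 4 remained with all 30 arrays and 4 with the series matrix, and Ccn2, Tead4, Ankrd1 and Ccn1 were called under every alternative run. None of the 6 had a gap of 0.5 between the RepSox 24 h arrays.

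The TEAD motif GGAATG was searched on both strands in the same windows. It was found for 6 of the 9 list genes with a window, against 14.7% of all windows and 14.3% of the tested genes. All 3 of the fallen genes with a window held it. The list was made of known YAP target and density genes, so its share of the motif says nothing about this time step. The stretches are shown for Ankrd1, which has 2 matches (chr19:36120029-36120074 and chr19:36119942-36119987, minus strand), and Ccn1 (chr3:145650063-145650108, minus strand), with the match in capitals.
Ankrd1, first: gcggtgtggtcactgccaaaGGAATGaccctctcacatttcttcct
Ankrd1, second: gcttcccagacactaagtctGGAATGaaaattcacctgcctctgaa
Ccn1: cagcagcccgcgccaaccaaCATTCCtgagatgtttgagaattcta

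Lists of signalling readouts had members that changed in either direction, where 4.96% of all genes rose and 7.32% fell. Of 14 immediate early genes 5 fell, 1 rose and 8 did not pass (median -0.24). Ccn2, also in the YAP and TGF-beta lists, was among those that fell. Of the 6 calls 3 remained with all 30 arrays and 2 with the series matrix. Fos, a subunit of AP-1, changed by -0.90 ± 0.19 and stood at 8.31 at 48 h, close to its 8.13 to 8.25 at 10 h. Ier3, an early response gene, rose by 0.81 ± 0.19 and was also the risen gene of the ERK list. Of 13 TGF-beta targets 3 fell, Ccn2, the secreted matrix protein gene Tgfbi (-0.67 ± 0.13) and Col7a1, a collagen detected on no 24 h array and at least 1.60-fold lower. Of 8 BMP targets 3 fell, Grem1, a secreted BMP antagonist (-1.01 ± 0.15), and Id3 and Id1, which block basic helix-loop-helix factors (-0.48 ± 0.14 and -0.47 ± 0.14). Of these 3 calls 0 remained with all 30 arrays and 1 with the series matrix. Id3 and Id1 lost their calls under 10 and 9 of 20 alternatives. Of 10 ERK readouts 1 rose and 2 fell, with 7 of the 10 changes above 0 (median 0.18). Phlda1, a gene of that list, changed by -0.77 ± 0.12. Of 8 Wnt, 8 Notch and 15 LIF and Stat3 genes 1 rose in each list and 0 fell. With 12.3% of all genes changed, these counts say little about the lists. The risen genes were the Wnt antagonist gene Sfrp1 (0.41 ± 0.11), the receptor gene Notch1 (0.81 ± 0.19) and Serpina3n (0.40 ± 0.11).

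Contractile and adhesion genes were mixed, where 4.96% of all genes rose and 7.32% fell. Acta2, the smooth muscle actin, went from 10.58, 10.62 and 10.53 to 9.30, 9.18 and 9.04 (-1.41 ± 0.13, adjusted p = 1.8e-06), a call lost with the series matrix (adjusted p = 0.15). The filament gene Des rose by 0.67 ± 0.12 in the same list of 11, in which 2 fell. Itgb1, the common beta chain of matrix integrins, changed by -0.99 ± 0.19, and Itgb7, a leukocyte integrin chain detected on no 10 h array, was at least 1.27-fold higher. Of 17 epithelial genes 1 fell, Krt14, described above, and 2 rose, Ppl (0.66 ± 0.18), a plakin of cell junctions, and the splicing factor gene Esrp1 (0.54 ± 0.17). Dab2, an endocytic adaptor of primitive endoderm and other cells, changed by -1.38 ± 0.13.

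**Figure D3:**
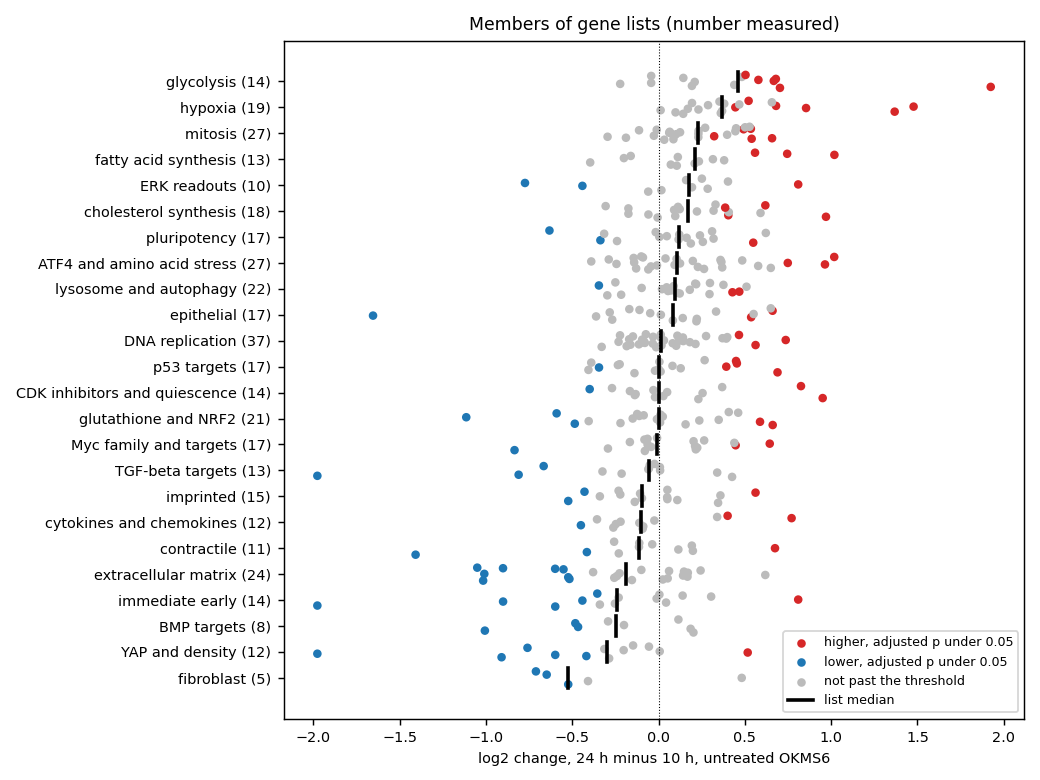
Change from 10 h to 24 h on the log2 scale (x axis) of each measured member of the 24 lists in which at least 3 members changed, with red for higher, blue for lower and grey for genes not past the threshold, and a black bar at each list's median. The medians run from 0.46 in glycolysis to -0.52 in fibroblast markers; grey points are the majority in all lists shown other than the YAP and fibroblast lists.

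Of 27 mitosis genes 5 rose and 0 fell, against 4.96% of all genes that rose, and 22 of the 27 changes were above 0 (median 0.23). Pttg1, the separase inhibitor securin, rose by 0.49 ± 0.12, Ccna2, the cyclin of S phase and mitosis entry, by 0.66 ± 0.17, and the kinase gene Cdk1 by 0.32 ± 0.09. None of the 5 calls remained with all 30 arrays or with the series matrix, and Ccna2 had a gap of 0.71 between the RepSox 24 h arrays. The CCAAT motif was found for 18 of the 23 list genes with a window, against 44.0% of the tested genes. Of the 4 risen genes with a window 3 held it. The list was made of known mitosis genes, so its share of the motif says nothing about this time step. Of 37 replication genes 3 rose, Tk1 (0.47 ± 0.11) and Dut (0.56 ± 0.14) of nucleotide supply and the polymerase clamp gene Pcna (0.74 ± 0.23), whose gap was 1.30. At 48 h Cdk1, Tk1 and Dut stood at 9.96, 9.67 and 6.36, below their 10 h levels.

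None of the reprogramming factors passed the test. Pou5f1 was at 0.24 ± 0.15, Klf4 at 0.32 ± 0.18 and Myc at 0.21 ± 0.17, with adjusted p of 0.32, 0.27 and 0.43. Sox2 was detected on 2 of 3 arrays at 10 h and on none at 24 h, where it was at least 1.12-fold lower, and did not pass either (adjusted p = 0.13). Viral copies and the cells' own genes were not told apart. Of 17 pluripotency genes 1 rose, the Ras-like gene Eras, detected on no 10 h array and at least 1.14-fold higher, and 2 fell, the zinc finger gene Zfp42 (-0.63 ± 0.14) and the TGF-beta family ligand gene Gdf3 (-0.34 ± 0.10). Tfap2c, Igf2 and Pecam1 were at -0.05 ± 0.11, -0.10 ± 0.12 and 0.20 ± 0.16. Tdgf1, a co-receptor of Nodal, had a change of 0.62 ± 0.21 that missed the threshold (adjusted p = 0.057). In 6 lists 0 members changed. They were small, with 3 trophectoderm, 1 blood, 11 metallothionein and iron, 7 polyamine, 6 DNA methylation and 6 neural and mesoderm genes measured, and 12.3% of all genes changed, so a count of 0 says little about them.

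The same time step in RepSox-treated cells, which share no array with the untreated cells but were normalized with them, was set beside it. With RepSox 1116 genes changed (12%), 553 up (5.97%) and 563 down (6.08%). Both steps changed 302 genes in the same direction, 123 up and 179 down, which is 26.5% of the untreated calls and 27.1% of the RepSox calls, and 26 in opposite directions. Of the 1138 untreated calls, 967 (85.0%) had the same sign with RepSox, against 64.5% of all genes. The changes correlated across genes at r = 0.43 (rho = 0.42), and genes are not independent replicates.

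The matrix gene Lox fell in both, by limma's adjusted p, and the changes differed by -0.01 (adjusted p of the difference 0.99). Txnip was at 0.83 and 0.78 (adjusted p of the difference 0.94). A difference test that misses the threshold does not show that the changes were equal.

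The difference itself passed for 289 genes (3.12%), of which 115 were among the 1138. Ndrg1 rose by 1.48 without RepSox and was at -0.02 with it, a difference of 1.50 (adjusted p = 4.3e-04). Mgarp rose without RepSox and fell with it (-0.77), a difference of 2.23. At 10 h it already stood at 8.08, 8.17 and 8.10 with RepSox, against 7.01, 6.84 and 7.04 without. Egln3, P4ha1, Aldoa and Pfkm also differed, by 0.98, 0.89, 1.01 and 0.59. Acta2 fell without RepSox and was at -0.19 with it, a difference of -1.21 (adjusted p = 3.5e-04). The kallikreins went the other way and rose more with RepSox, Klk1 by 2.53 and Klk1b5 by 2.66. Without replicate 3 of the RepSox 24 h arrays 688 genes differed, and without replicates 1 and 2 of them 189 did.

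**Figure D4:**
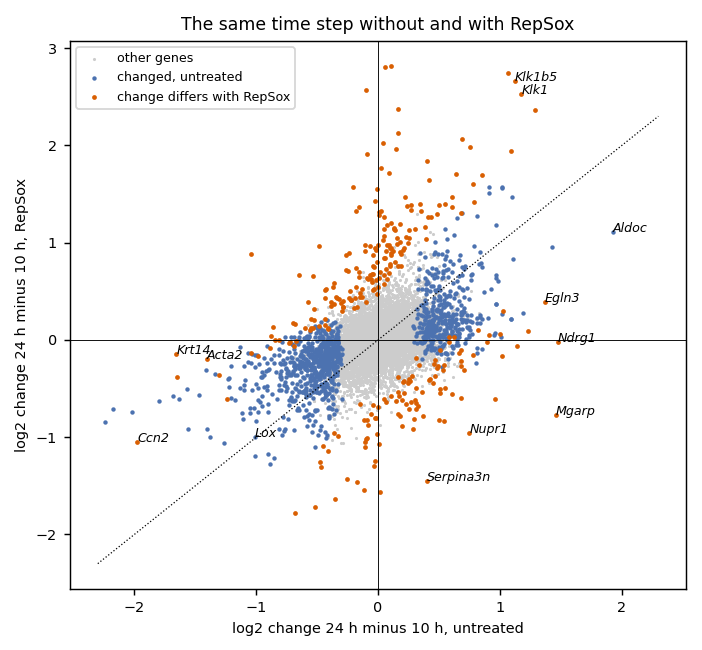
Change from 10 h to 24 h on the log2 scale in untreated cells (x axis) and RepSox cells (y axis) for the 9267 genes, with changed genes in blue, genes whose changes differ in orange and a dotted line at equal change. Lox lies on the line, Ndrg1 and Acta2 near the horizontal axis, Mgarp, Nupr1 and Serpina3n below it on the right, and Klk1 and Klk1b5 high above the line.

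**Figure D5:**
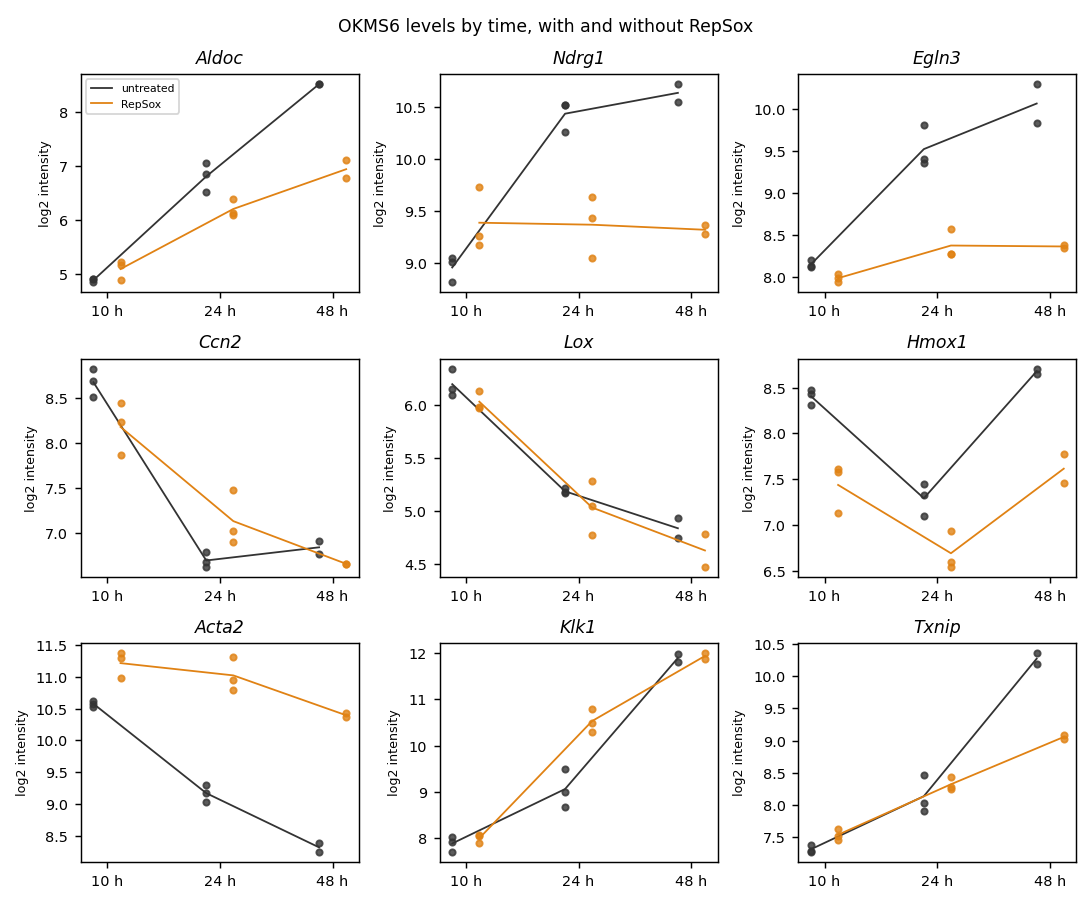
Normalized log2 intensity (y axis) of 9 genes at 10, 24 and 48 h (x axis, drawn at even steps) in untreated (black) and RepSox-treated (orange) OKMS6 cells, with a point per array, lines through the means and 2 arrays per group at 48 h. In untreated cells Aldoc and Txnip stood higher and Acta2 lower at 48 h than at 24 h, and Hmox1 was back near its 10 h level at 48 h without RepSox.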

How the data were processed

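The authors deposited scanner values: for every probe a linear intensity and a detection p-value. Per the submitters' processing notes BeadStudio was used (version not given). They also deposited a series matrix of processed intensities, and how it was made is not stated there. Its columns for replicate 3 of the untreated and RepSox-treated cells at 48 h matched their own scanner columns at rho = 0.931 and the others at 1. At 48 h, the normalized scanner level of Nanog was 4.74, 4.74 and 4.89 on untreated replicates 1, 2 and 3. With RepSox it was 7.86, 7.70 and 7.83. Pecam1 was at 8.79, 8.40 and 8.45 untreated and at 4.65, 4.75 and 4.49 with RepSox. In both genes the scanner values of replicate 3 lay with their own group. Both arrays stayed in the fit, and 1168 genes changed in untreated cells without them. The software was limma 3.58.1 under R 4.3.3. Background correction and quantile normalization over the 18 OKMS6 arrays used neqc (offset 16, background inferred from detection p-values), which turned the deposited intensities into log2 values. The filter kept probes that 3 or more of the 18 arrays detected at p under 0.05 (13591 of 25697, 12786 with a gene name from GEO's platform annotation), and each gene was read from its probe of highest mean. Of the platform's probes 23978 had 1 gene symbol, 0 several and 1719 were unlisted, and 23962 Entrez identifiers were found in a RefSeq table, with 0 symbols updated.

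The model fitted 6 group means, with 12 residual and 7.67 prior degrees of freedom. Tests were two-sided, and p-values were adjusted by Benjamini-Hochberg over all 9267 genes. The median SE was 0.13. Where no array of the dimmer group detected a gene, its fold is a lower bound: per dim array, the larger of its own signal and the lowest signal detected there was set against the brighter mean. The code was tested on simulated data.

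Named were the 12 largest rises and 12 largest falls without overlap between the arrays (clone and provisional names left out), up to 4 members of each list by adjusted p, other members of lists of at most 12 measured genes, and 9 genes always. The lists, members and tests were chosen with earlier results of these data known. No list was tested as a set. The deviations of same-numbered RepSox arrays at 10 h and 24 h correlated at 0.22, 0.32 and 0.26. Replicate 1 at 10 h and replicate 2 at 24 h correlated at 0.19, and other unlike-numbered pairs at -0.34 to -0.04. The numbers therefore did not single out the pair of replicate 1. The number of arrays limits the precision.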

Additional observations from a re-analysis of the deposited data

Results flagged for a closer look

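For 25 genes named in the report or in its lists, the change from 10 h to 24 h differed between untreated and RepSox-treated cells (difference of the changes, untreated minus RepSox, limma with adjusted p under 0.05 over all genes). In the hypoxia and glycolysis lists and among the large rises, the untreated change was higher by 2.23 in Mgarp, 1.50 in Ndrg1, 1.20 in Eml1, 1.13 in Clrn3, 1.01 in Aldoa, 0.98 in Egln3, 0.89 in P4ha1 and 0.59 in Pfkm. It was also higher by 1.85 in Serpina3n, an acute phase serpin, 1.70 in Nupr1, 1.19 in Vldlr, 0.80 in Cat and 0.67 in Tk1.

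The untreated change was the lower one in the other genes. The difference was -1.54 in Klk1b5, -1.36 in Klk1, -1.07 in Upk1b and -0.84 in Eras, which rose more with RepSox. It was -1.51 in Krt14, -1.27 in Ftdc2, -1.21 in Acta2, -0.93 in Ccn2, -0.84 in Dcn, -0.81 in Col7a1, -0.77 in Gdf3 and -0.65 in Clock, which fell more without RepSox or fell there alone. Krt14, Ftdc2 and Col7a1 had a gap of at least 0.5 log2 between the RepSox 24 h arrays, whose part in the difference was not tested.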

How the results depend on the processing

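No named gene that was called reversed its direction under the alternatives run: of the results for single genes under single alternatives, 4604 kept their side of the threshold, 407 lost the call and 109 gained it. The number of changed genes did move. In untreated cells 1138 genes became 206 with all 30 arrays of the platform (89 higher, 117 lower) and 1120 when the dim V6.5 replicates 1 and 3 were left out of those, 526 under median scaling (249 and 277), 326 from the series matrix (108 and 218), 3007 with array weights (1420 and 1587) and 429 at an adjusted p under 0.01 (162 and 267). With only the groups compared 1930 changed, 919 of them higher, and without RepSox 24 h arrays 1 and 2 (chosen after the data were seen) 692 rose. Leaving out 1 array gave 594 to 789 (218 to 300 higher, 376 to 492 lower): 702, 594 and 648 without replicate 1, 2 and 3 at 10 h, and 789, 672 and 665 at 24 h. The share of calls that were higher, 40.4%, became 47.3% under median scaling and 33.1% in the matrix.

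The RepSox step's 1116 became 337 with all 30 arrays (204 and 133), 416 with only the groups compared (250 and 166), 1882 under median scaling (204 and 1678), 216 from the series matrix (144 and 72), 2856 with array weights (1420 and 1436), 609 at the stricter threshold (343 and 266) and 870 to 1116 without 1 array (443 to 587 and 427 to 594). The 289 differences became 72 (21 and 51), 156 with median scaling (40 lower), 11 with the matrix (4 and 7), 2249 with weights (1097 and 1152), 159 at the stricter threshold (52 and 107), 189 without RepSox 24 h arrays 1 and 2 (102 lower) and 202 to 688 without 1 array (65 to 307 and 136 to 381). The series matrix fits kept both 48 h replicate 3 columns on which the deposited tables disagree, which enter the shared spread. The cause of these shifts was not tested. With the replicate block the pairing gave 1171, 1145 and 290; in untreated cells same-numbered arrays correlated at only 0.05, 0.04 and 0.03, so the numbers do not pair them. A chip block could not be run because neither headers nor labels give chips.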
